A study of Mus musculus with 16 samples.

Results

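Noncoding transcripts of 3 kinds were followed on a polysome gradient of mouse hepatocytes. They were the snoRNA host genes Gas5 and Snhg1, the nuclear RNAs Malat1 and Neat1, and the imprinted noncoding RNAs Meg3, H19 and Rian. They were taken by gene symbol. Of these 7 RNAs, 6 had a probe on the array, out of 30214 gene names. Rian had no probe under that name. All 6 had at least 1 probe that passed the detection filter and entered the fit of 19365 genes, although only 1 of 3 Meg3 probes and 1 of 2 H19 probes did.

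An mRNA in translation carries several ribosomes and sediments with polysomes, while RNA that is not translated stays in the lighter part of the gradient. Host genes of small nucleolar RNAs carry the snoRNAs in their introns, and the spliced exons of Gas5 and Snhg1 hold only short reading frames. Both are counted among transcripts with a 5′ terminal oligopyrimidine (5′ TOP) tract, like ribosomal protein mRNAs, although annotated starts do not always show it, and Gas5 is a classical substrate of nonsense-mediated decay, which acts on translated RNA. Malat1 is retained in nuclear speckles and Neat1 is the scaffold of paraspeckles. Meg3 and Rian are transcribed from the maternal copy of the Dlk1-Dio3 locus, and H19 from the maternal copy of the Igf2 locus.

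The cells were AML12, an established mouse hepatocyte line. Some cells held an shRNA against eIF6, a factor that binds the large ribosomal subunit and keeps it apart from the small one. Control cells held a scramble shRNA. Doxycycline induces both shRNAs. Every culture, controls included, received doxycycline and then insulin for 1 h. The labels give the insulin as 100 nM in one field and 100 mM in another, and the study states 100 nM for AML12 cells stimulated for 1 h. The cells were lysed with a mild detergent and centrifuged, and the cytoplasmic extract was run on sucrose gradients. The lighter pooled fractions gave subpolysomal RNA (S) and the heavier ones polysomal RNA (P), and each RNA was hybridized alone on a one-colour array. There were 4 groups of 4 arrays, which were scramble S, scramble P, eIF6 shRNA S and eIF6 shRNA P. Total and nuclear RNA were not analysed here, so the values describe RNA in that cytoplasmic extract. What share of a nuclear RNA such as Malat1 or Neat1 reached the extract was not measured. The study's methods call the arrays of a group biological replicates. Whether these came from a single infected line per shRNA or from separate infections is not stated. The p-values measure only the spread among these replicates.

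The probes carry the identity of what was measured, and each is printed as deposited, with its position in the mouse genome build mm9. Whether a probe lies in an exon or an intron was not analysed here. Gas5 was read by 3 probes on the plus strand of chromosome 1, at chr1:162966369-162966428, chr1:162967350-162967409 and chr1:162968608-162968667, called below its 5′, middle and 3′ probe. Snhg1 was read at chr19:8798913-8798972 on the plus strand, Malat1 at chr19:5795713-5795772 and Neat1 at chr19:5842564-5842623, both on the minus strand. The detected H19 probe lay at chr7:149761492-149761551 on the minus strand and the detected Meg3 probe at chr12:110799558-110799617 on the plus strand.
Gas5 5′ probe: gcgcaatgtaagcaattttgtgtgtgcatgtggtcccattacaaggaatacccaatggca
Gas5 middle probe: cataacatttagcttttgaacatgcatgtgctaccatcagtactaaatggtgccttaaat
Gas5 3′ probe: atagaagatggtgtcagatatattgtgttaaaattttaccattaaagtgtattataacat
Snhg1 probe: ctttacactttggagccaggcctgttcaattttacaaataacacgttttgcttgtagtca
Malat1 probe: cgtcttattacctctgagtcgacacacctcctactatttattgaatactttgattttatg
Neat1 probe: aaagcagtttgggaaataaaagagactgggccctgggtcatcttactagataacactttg
H19 probe: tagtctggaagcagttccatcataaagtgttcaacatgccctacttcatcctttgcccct
Meg3 probe: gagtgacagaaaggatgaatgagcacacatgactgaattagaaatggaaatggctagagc

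The starts of the 2 snoRNA hosts are shown because a 5′ TOP tract is defined by the first bases of the transcript. RefSeq's promoter table (GRCm38.p6, a different build from the probes) holds 2 starts of Gas5 and 1 of Snhg1, each printed with the 20 bases before and the 20 bases from the annotated start. Capitals mark a C followed by at least 4 bases that are each C or T, searched on the transcript strand and starting within 5 bases of the annotated start.
Gas5, first start (chr1:161034581-161034620): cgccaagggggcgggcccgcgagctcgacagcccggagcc
Gas5, second start (chr1:161035146-161035185): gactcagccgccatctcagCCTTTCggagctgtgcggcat
Snhg1 (chr19:8723467-8723506): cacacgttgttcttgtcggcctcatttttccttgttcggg
The tract was found at the second Gas5 start, where it is 6 bases long and begins 1 base before the annotated position. The first Gas5 start and the Snhg1 start held no such match in this window. The match occurred at 18.3% of 32851 promoters in the table and at 43.2% of the 74 starts of listed 5′ TOP mRNAs.

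Between 20177 and 24952 probes per array were well above background and no spot was saturated. The targeted gene Eif6 lay between 12.94 and 12.96 (log2 signal) in scramble P and between 11.81 and 11.999 in eIF6 shRNA P, a fall of 1.05 ± 0.08 (SE, adjusted p = 1.45e-07), while in S it read 11.60 ± 0.06 and 11.61 ± 0.14 (SD, n = 4 each, adjusted p = 0.917). Of 13 hepatocyte markers, 9 were well above background on all 16 arrays, Hnf4a, Trf and Krt18 among them, and Alb on 7 arrays at most, Apoa1 on 2 and Pck1 on 1. Fibroblast markers were also present, and all 6 tested (Col1a1, Col1a2, Col3a1, Thy1, Pdgfra and Pdgfrb) fell with the eIF6 shRNA, with a median difference of -3.10 in P and of -1.72 in S. The log2 of their summed signal lay between 16.56 and 17.43 on the 8 scramble arrays and between 13.26 and 15.59 on the 8 eIF6 shRNA arrays. In such bulk samples, fewer cells of a type and less RNA per cell cannot be told apart. The part of these markers in the changes with the shRNA below was not tested.

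All values below are log2 of the array signal after quantile normalization, which gives every array the same distribution. A difference between P and S is therefore relative to the typical gene, whose difference was 0.04, and not a share of molecules. Gas5, Snhg1, Malat1 and Neat1, the RNAs detected on all 16 arrays, were lower in P than in S in both kinds of cells, with differences from -4.81 to -2.36. In scramble cells 28.4% of all genes were called lower in P and 31.7% higher, and in eIF6 shRNA cells 28.7% lower and 32.1% higher. A call alone was thus common, so the place among all genes is given as a description. How many of all genes have groups that do not overlap was not counted. Separate groups are therefore also only a description, here and for the shRNA below. Each of the 4 lay at percentile 1.74 or lower of all genes in both kinds of cells, and at 4.27 or lower with 75th percentile scaling. H19 and Meg3 were not detected on most P arrays, so H19 is given as levels and Meg3 with the interval of its difference.

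**Figure D1:**
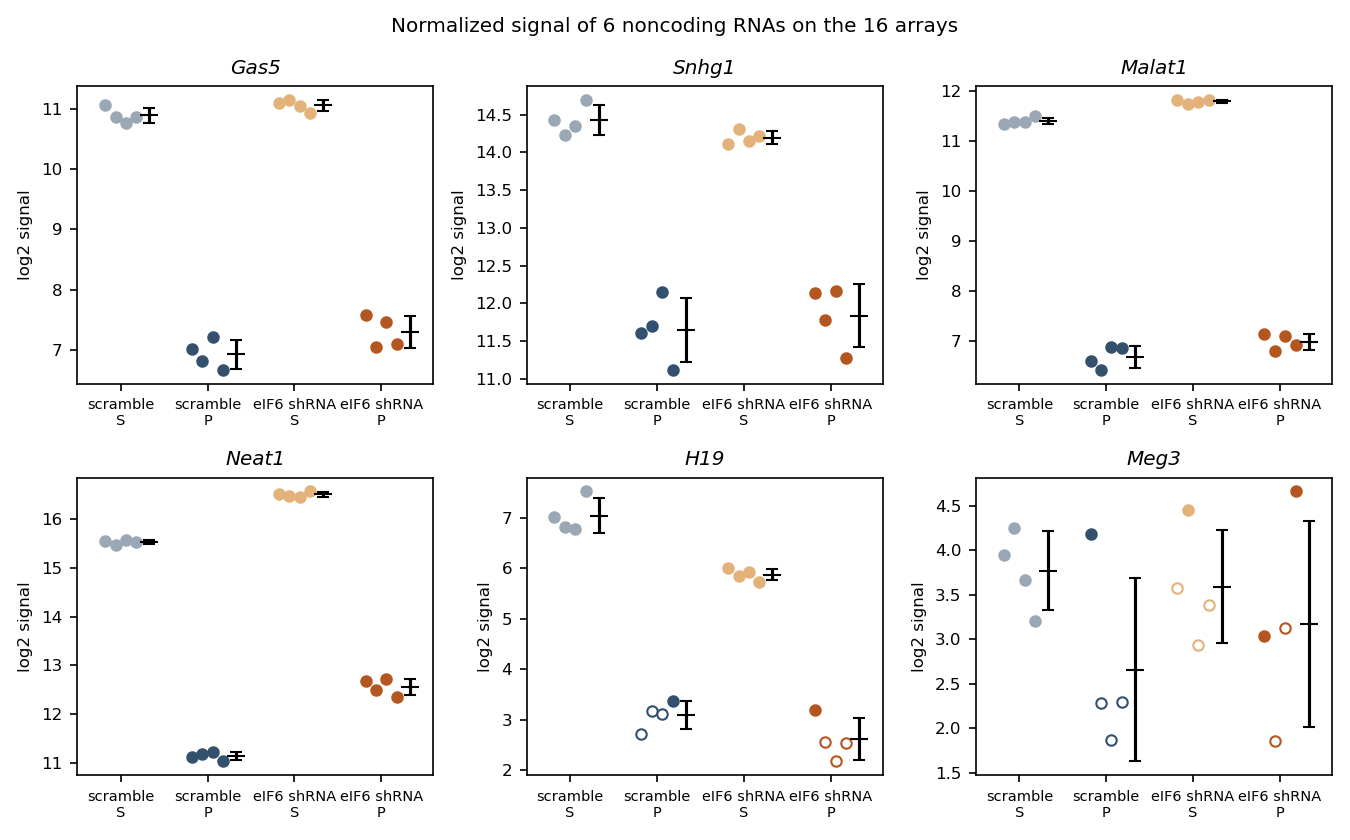
Normalized log2 signal (y axis, a separate range per RNA) of 6 noncoding RNAs on the 4 arrays of each group (x axis), with the mean and SD as a bar beside the points. Filled points are arrays on which the probe was well above background. For Gas5, Snhg1, Malat1 and Neat1, no P array reached the level of any S array, while the Meg3 groups overlapped. How many of all genes have such separate groups was not counted, so this is a description only. The H19 probe was kept through S alone, so its step away from P signal at background follows from the filter.

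Gas5, the host of several box C/D snoRNAs, read 11.06, 10.87, 10.77 and 10.87 in S of scramble cells and 7.02, 6.81, 7.21 and 6.66 in P. The groups did not overlap, and the difference of -3.97 ± 0.14 (SE, adjusted p = 1.64e-11) is a 15.6-fold lower relative signal in P. Only 45 of 19365 genes had a more negative difference. In eIF6 shRNA cells Gas5 read 11.10, 11.16, 11.05 and 10.93 in S and 7.58, 7.04, 7.45 and 7.09 in P, a difference of -3.77 ± 0.14 (adjusted p = 3.01e-11). Its 3 probes gave similar steps, of -4.17, -3.90 and -3.82 in scramble cells, from the 5′ to the 3′ probe.

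Snhg1, another host of box C/D snoRNAs, had a smaller difference. It read 14.43, 14.23, 14.35 and 14.70 in scramble S against 11.61, 11.70, 12.16 and 11.12 in scramble P. The difference was -2.78 ± 0.21 (adjusted p = 4.27e-08), or 6.87-fold, and 227 genes lay lower. With the eIF6 shRNA it read 14.12, 14.30, 14.15 and 14.22 in S and 12.13, 11.78, 12.16 and 11.28 in P, a difference of -2.36 ± 0.21 (adjusted p = 2.70e-07). The 8 P arrays spread over 1 log2 unit, more than the S arrays, yet no P value came near an S value.

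Malat1, the nuclear speckle RNA, had the most negative difference of the 6. In scramble cells it read 11.35, 11.38, 11.39 and 11.51 in S and 6.60, 6.43, 6.88 and 6.86 in P, a difference of -4.72 ± 0.11 (26.3-fold, adjusted p = 2.49e-13). Only 13 genes lay lower. In eIF6 shRNA cells it read 11.82, 11.75, 11.79 and 11.83 in S and 7.14, 6.80, 7.10 and 6.93 in P, with a difference of -4.81 ± 0.11 and 11 genes lower.

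Neat1, the paraspeckle scaffold, read 15.56, 15.48, 15.58 and 15.53 in scramble S and 11.12, 11.18, 11.22 and 11.03 in scramble P. The difference was -4.40 ± 0.08 (21.1-fold, adjusted p = 9.78e-14), with 20 genes lower. With the eIF6 shRNA it read 16.53, 16.48, 16.46 and 16.59 in S and 12.67, 12.50, 12.72 and 12.36 in P, a difference of -3.95 ± 0.08 and 41 genes lower. None of its 4 groups overlapped another, which is a description without a count over all genes.

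H19 was a weak signal that was detected in S and hardly in P. Its probe passed the detection filter only through S, being well above background on all 4 S arrays of either shRNA and on 1 of 4 P arrays of either shRNA. In scramble cells it read 7.02, 6.81, 6.78 and 7.53 in S and 2.72, 3.17, 3.12 and 3.36 in P, and in eIF6 shRNA cells 5.998, 5.85, 5.92 and 5.73 in S and 3.19, 2.56, 2.17 and 2.54 in P. Every S array lay above every P array. A probe kept for its signal in S had to differ from a group at background, so no test of P against S and no place among genes is given. The size of the step also rested on how the background was handled, with a fitted difference of -3.94 in scramble cells that became -1.25 with normexp background correction.

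Meg3 could not be placed. Its detected probe was well above background on 4 arrays of scramble S, 1 of scramble P, 1 of eIF6 shRNA S and 2 of eIF6 shRNA P, and its other probes on 1 and 0 of the 16 arrays. It read 3.95, 4.25, 3.67 and 3.21 in scramble S and 4.18, 2.29, 1.87 and 2.30 in scramble P, where the first P array lay within the S range. The difference was -1.11 with a 95% interval from -2.31 to 0.10 (adjusted p = 0.103), and in eIF6 shRNA cells it was -0.42 (-1.62 to 0.79, adjusted p = 0.542). Meg3 was called lower in P of scramble cells with 75th percentile scaling (-1.75, adjusted p = 0.0143) and with slide as a block (adjusted p = 0.046). A filter for probes detected on all 4 arrays of a group kept its probe only through scramble S. The call under that filter was favoured by the selection, and no conclusion is drawn from it.

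**Figure D2:**
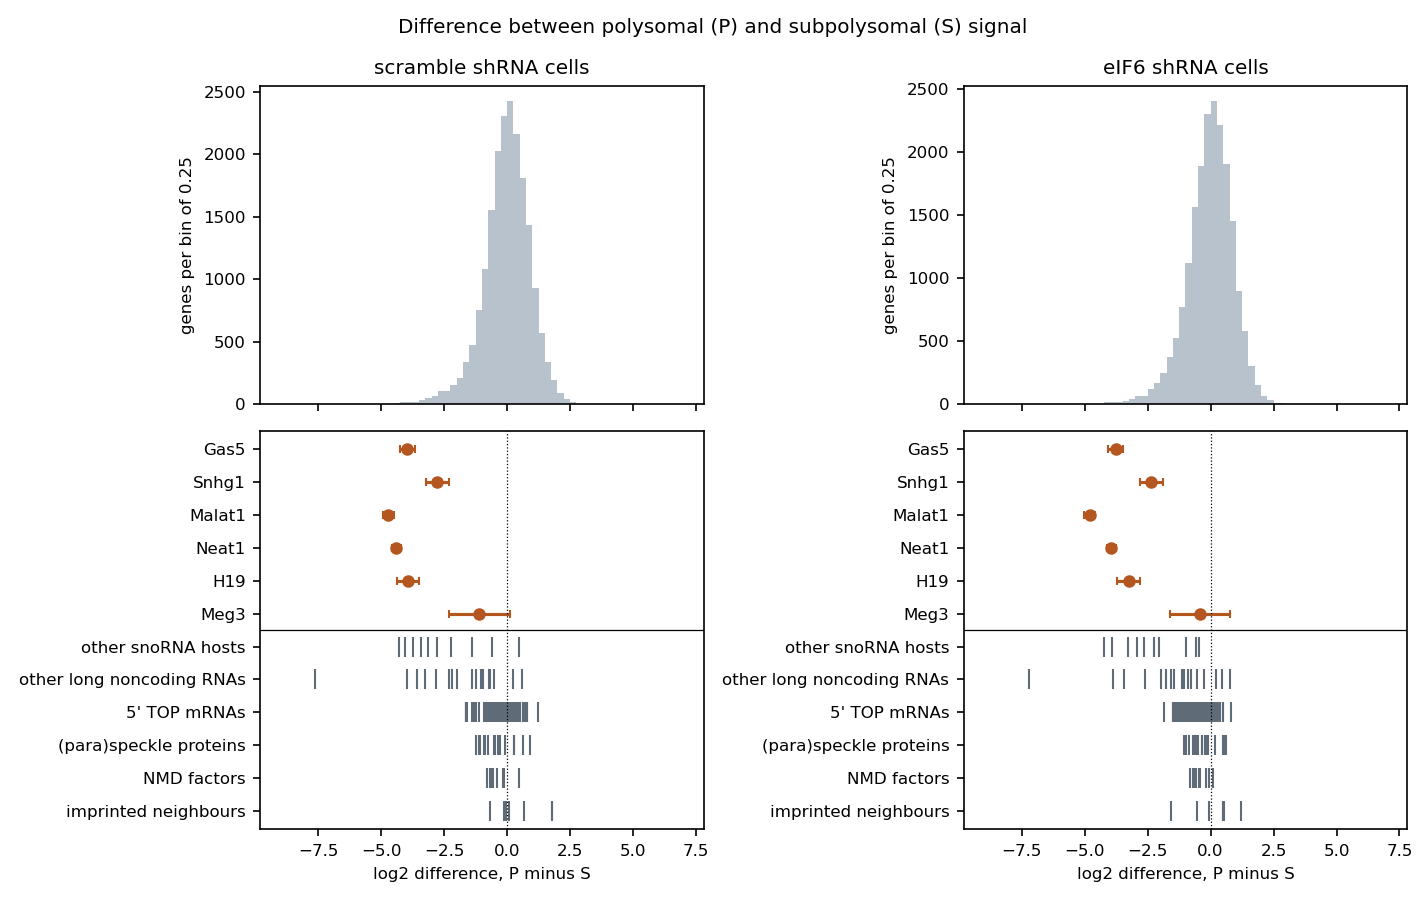
Top, histograms of the difference between P and S (x axis, log2) over 19365 genes in scramble (left) and eIF6 shRNA cells (right). Bottom, the same difference for the 6 noncoding RNAs with 95% confidence intervals and, as ticks, for the single genes of 6 lists. Malat1, Neat1 and Gas5 lie at -3.77 or lower in both panels, where the histogram is almost empty, and Snhg1 at -2.78 and -2.36. The H19 point is taken against P signal mostly at background.

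Every slide carried 1 array of each group, and the differences held within each slide. On the 4 slides, P minus S in scramble cells ran from -4.25 to -3.66 for Gas5, from -3.23 to -2.55 for Snhg1, from -4.93 to -4.53 for Malat1 and from -4.56 to -4.32 for Neat1. Meg3 ran from -1.66 to -0.07.

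The order of the 4 RNAs detected on all arrays was then tested within arrays, by comparing the difference between 2 RNAs in P with that in S. This comparison was chosen after the values were seen on the same arrays, so its p-values are no independent support for the order. An exact permutation test over 8 arrays, two-sided, was run for the 6 pairs in each kind of cell, and its smallest possible p is 0.0286. In scramble cells the P minus S difference of Snhg1 was less negative than that of Gas5 by 1.19 ± 0.16, of Malat1 by 1.94 ± 0.25 and of Neat1 by 1.62 ± 0.20 (exact p = 0.0286, adjusted over the 12 tests 0.0343, for each). That of Gas5 was less negative than that of Malat1 by 0.75 ± 0.17 and of Neat1 by 0.44 ± 0.11 (exact p = 0.0286 and adjusted p = 0.0343 for each). The neighbours Malat1 and Neat1 differed by 0.32 ± 0.13 (exact p = 0.0857, adjusted p = 0.0935). In eIF6 shRNA cells Malat1 lay below Neat1 by 0.86 ± 0.06 (exact p = 0.0286, adjusted p = 0.0343), while Gas5 and Neat1 differed by 0.18 ± 0.10 (exact p = 0.171). With 75th percentile scaling in place of quantile normalization Malat1 lay below Neat1 by 0.43 ± 0.09 and Gas5 above Neat1 by 0.61 ± 0.11 in these cells (exact p = 0.0286 and adjusted p = 0.0312 for each). No pair changed its order.

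The zero of the gradient axis depends on the scaling. Scaling to the 8 probes of the array maker's spike-in RNA put the median gene 1.52 higher in P than in S in scramble cells and 1.31 higher in eIF6 shRNA cells, and called 389 genes lower and 13324 higher in P of scramble cells in place of 5498 and 6133. Scaling to the 75th percentile moved the median by -0.20 and -0.23. Under the spike-in scaling Gas5 (-2.27), Malat1 (-3.00) and Neat1 (-2.68) were still called lower in P of scramble cells, and Snhg1 at -0.87 no longer passed (adjusted p = 0.111). Less the median of all genes, the spike-in values were -3.79 for Gas5, -2.39 for Snhg1, -4.53 for Malat1 and -4.20 for Neat1.

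**Figure D3:**
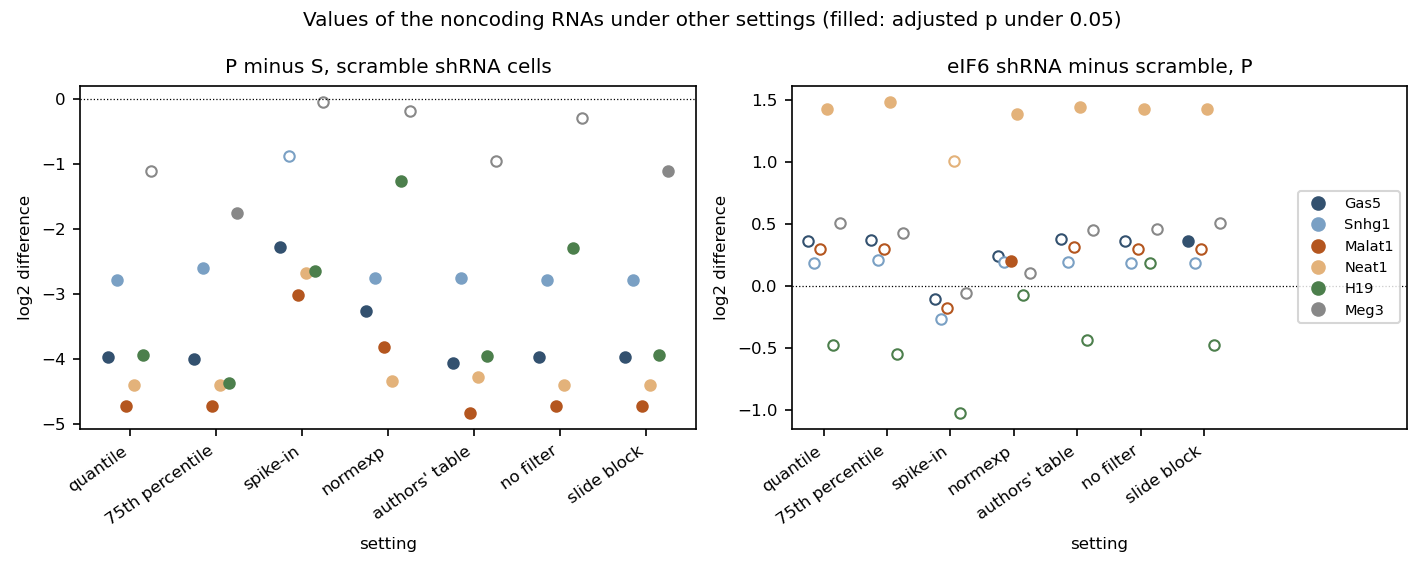
Log2 difference (y axis) of each noncoding RNA under 7 settings (x axis) for P minus S in scramble cells (left) and for eIF6 shRNA minus scramble in P (right). Points are filled where the adjusted p was under 0.05. On the left all values lie below 0, Gas5, Malat1 and Neat1 are called throughout, Snhg1 loses its call under spike-in scaling and Meg3 is called in 2 settings, while the H19 points are taken against P signal mostly at background. On the right Neat1 stays highest throughout and loses its call under spike-in scaling.

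The second question was what changed with the eIF6 shRNA in each fraction. In P, 10.7% of all genes were called lower and 11.1% higher, and in S 12.3% lower and 11.8% higher. Neat1 rose in both fractions, Malat1 rose in S and H19 fell in S, while Gas5, Snhg1 and Meg3 passed in neither. Of the 6 RNAs, 1 was thus called in P and 3 in S.

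Neat1 had the clearest change. Its P signal went from 11.03 to 11.22 in scramble cells to 12.36 to 12.72 with the eIF6 shRNA, a rise of 1.43 ± 0.08 (2.69-fold, adjusted p = 1.24e-08). In S it rose by 0.98 ± 0.08 (1.97-fold, adjusted p = 9.73e-07), and with 75th percentile scaling by 1.496 ± 0.10 (adjusted p = 7.64e-08), against 1.49 ± 0.10 in P (adjusted p = 2.56e-08). On the 4 slides the rise ran from 1.24 to 1.54 in P and from 0.88 to 1.05 in S. The rise in P was larger than that of 98.6% of genes, and that in S than that of 97.2%. Under spike-in scaling, where the median gene moved by -0.48 in P and -0.24 in S, Neat1 was at 1.01 in P (adjusted p = 0.389) and 1.20 in S (adjusted p = 0.364).

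Malat1 rose by 0.39 ± 0.11 in S (1.31-fold, adjusted p = 0.0148), where the scramble arrays lay between 11.35 and 11.51 and the eIF6 shRNA arrays between 11.75 and 11.83. In P its difference was 0.30 ± 0.11 (adjusted p = 0.0593), with overlapping groups. The call in S was lost without replicate 1 (0.36, adjusted p = 0.113) or 3 (0.39, adjusted p = 0.0771) and under spike-in scaling (0.12).

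H19, expressed in fetal liver and in mesenchymal cells, fell by 1.16 ± 0.21 in S (2.24-fold lower, adjusted p = 0.000817). The 4 eIF6 shRNA arrays, from 5.73 to 5.998, all lay below the lowest scramble array at 6.78. In P the difference was -0.48 ± 0.21 (adjusted p = 0.125), with overlapping groups that were mostly at background, and without replicate 1 it was -0.79 and passed (adjusted p = 0.0195). The fall in S moved with the fall of the 6 fibroblast markers given above, whose part in it was not tested. Under spike-in scaling it was -1.35 (adjusted p = 0.205).

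The snoRNA hosts did not pass in either fraction. Gas5 differed by 0.36 ± 0.14 in P (95% interval 0.07 to 0.66, adjusted p = 0.0772) and 0.17 ± 0.14 in S (-0.13 to 0.46, adjusted p = 0.417). Snhg1 differed by 0.19 ± 0.21 in P (-0.26 to 0.64, adjusted p = 0.617) and -0.23 ± 0.21 in S (-0.69 to 0.22, adjusted p = 0.478). Meg3 differed by 0.51 in P (-0.69 to 1.72) and -0.18 in S (-1.38 to 1.03).

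The Gas5 probes differed in their change with the shRNA. In P the 5′ probe gave 0.14 ± 0.10 (adjusted p = 0.409), the middle probe 0.07 ± 0.13 (adjusted p = 0.789) and the 3′ probe 0.89 ± 0.27 (adjusted p = 0.0279). The 3′ probe read 6.90, 6.46, 7.17 and 6.02 in scramble P and 8.07, 7.29, 7.62 and 7.11 with the eIF6 shRNA. Its scramble arrays spread over more than 1 log2 unit and the highest of them lay above the lowest eIF6 shRNA array. In S it gave 0.52 ± 0.27 (adjusted p = 0.181), against 0.01 and -0.02 for the other probes. The mean of 0.36 for Gas5 therefore rests on its 3′ probe. Reading each probe alone was a choice made after the values were seen.

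**Figure D4:**
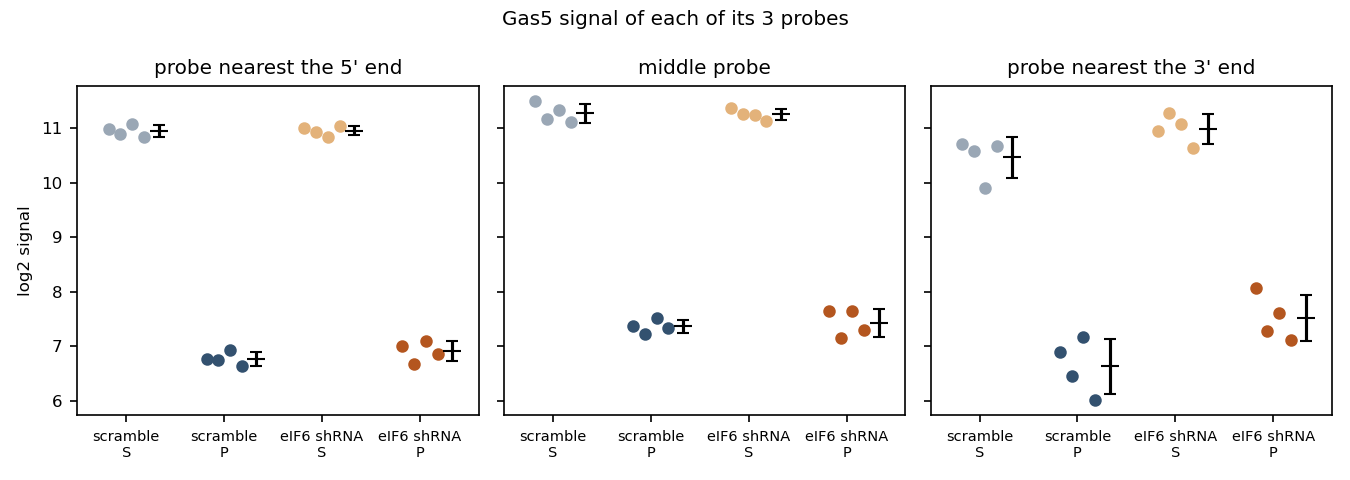
Normalized log2 signal (y axis) of the 3 Gas5 probes on the 4 arrays of each group (x axis), with mean and SD as a bar beside the points. The step from S to P is alike in the 3 panels, and the eIF6 shRNA groups lie above the scramble groups by 0.89 in P and 0.52 in S in the right panel, against 0.14 or less in the other panels.

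The change in translational efficiency, the P minus S difference with the eIF6 shRNA less that with scramble, was called lower for 1.11% and higher for 0.403% of all genes, and for none of the 6 RNAs. At an unadjusted p under 0.05, 2 of them passed, where 12.5% of all genes did. Neat1 had 0.45 ± 0.12 (unadjusted p = 0.00188, adjusted p = 0.0827) and was above 0 on all 4 slides. It was called with normexp correction (0.42, adjusted p = 0.0277), in the deposited log2 table (0.56, adjusted p = 0.0353) and without replicate 4 (0.51, adjusted p = 0.0442), whereas 75th percentile scaling put it at -0.01 (adjusted p = 0.994) and spike-in scaling at -0.19. H19 had 0.68 ± 0.29 (unadjusted p = 0.0345, adjusted p = 0.346), a value that rests on its P signal mostly at background, and was called with normexp correction (0.51, adjusted p = 0.0175). Gas5 (0.19), Snhg1 (0.42), Malat1 (-0.09) and Meg3 (0.69) had unadjusted p-values of 0.181 or higher.

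**Figure D5:**
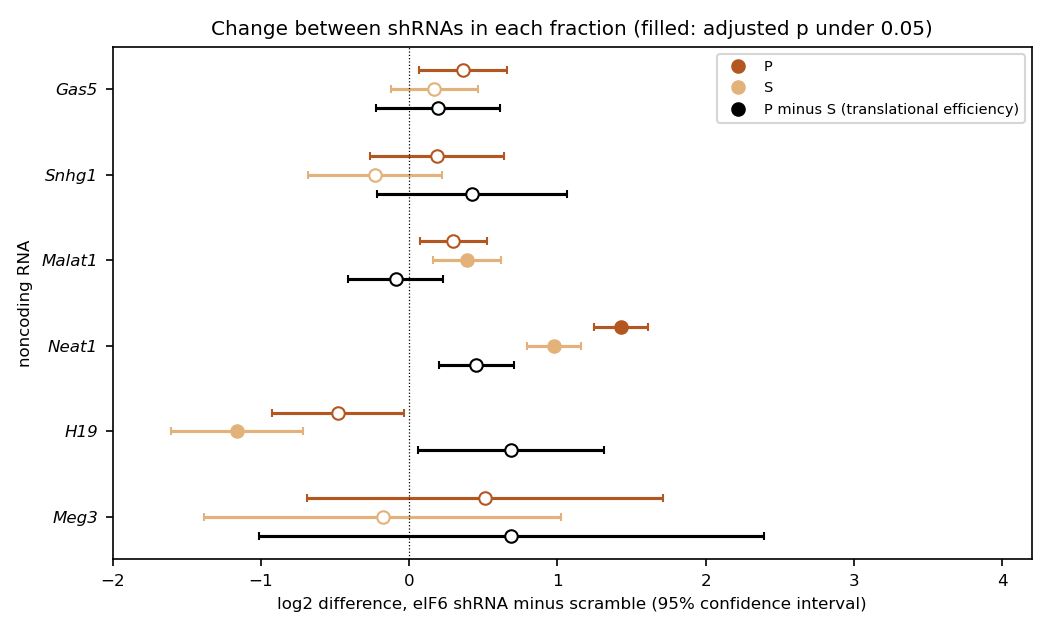
Log2 difference between eIF6 shRNA and scramble (x axis, with 95% confidence intervals) of each noncoding RNA in P, in S and in P minus S. Filled points have an adjusted p under 0.05. Neat1 is filled in P and S, at 1.43 and 0.98, Malat1 in S at 0.39 and H19 in S at -1.16, and no difference in translational efficiency is filled.

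Other RNAs of the same classes were read from lists that hold none of the 6. Their counts are to be read beside the shares of all genes. For P minus S in scramble cells 28.4% were lower and 31.7% higher. With the eIF6 shRNA 10.7% were lower and 11.1% higher in P, and 12.3% lower and 11.8% higher in S. Of 21 other snoRNA hosts 10 were tested, and 9 were lower in P of scramble cells and none higher, with a median of -2.95 against 0.04 for all genes. Dancr was at -4.30, Snhg7 at -4.05 and Snhg6 at -3.74. In eIF6 shRNA cells 9 of 10 were also lower. Under spike-in scaling 6 of the 10 were lower and 2 higher in scramble cells. With the eIF6 shRNA none of the 10 passed in P, while Snhg7 (-0.35) and Snhg5 (-0.52) fell in S. Neither fall passed under spike-in scaling.

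Protein-coding 5′ TOP mRNAs did not share that position. Of 91 tested, 45 were lower and 26 higher in P of scramble cells, with a median of -0.20. Of all genes, 28.4% were lower and 31.7% higher there. Rpsa, a ribosomal protein mRNA, was at -1.65, and Pabpc1, which encodes the poly(A)-binding protein, and Eif4b were at -1.65 and -1.64. The zero moved with the scaling. The list median was -1.03 with 83 lower under 75th percentile scaling, and 0.70 with none lower and 21 higher under spike-in scaling. Less the median of all genes it was -0.23 with quantile normalization, -0.83 with 75th percentile scaling and -0.83 with spike-in scaling. In its median the list thus lay below the typical gene under each of these. All of its members lay above the Snhg1 value, the lowest being at -1.65. With the eIF6 shRNA 35 of the 91 rose in S and 2 fell, and in P 3 rose and 1 fell. Under spike-in scaling none of them passed in either fraction.

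Among 17 other long noncoding RNAs tested, 14 were lower and 1, Tug1 at 0.57, was higher in P of scramble cells, with a median of -1.40. Rmrp, the RNA component of RNase MRP, was at -7.64, the lowest of all genes, Mir17hg, the host transcript of the miR-17 cluster, was at -3.97 and 2900097C17Rik at -3.58. With the eIF6 shRNA 2 of the 17 fell and 1 rose in P, 5 fell and 2 rose in S, and 1 rose in translational efficiency. Of all genes, 10.7% fell and 11.1% rose in P, and 12.3% fell and 11.8% rose in S. The genes below are thus named singly and not as a response of the class. Dnm3os, a host transcript of miRNAs, fell by 2.37 in S (adjusted p = 9.02e-07), with a change in translational efficiency of 2.21 (adjusted p = 0.000791). In P Dnm3os changed by -0.16 (adjusted p = 0.659), so the value for translational efficiency rests on the fall in S. Dnm3os was not well above background on every array. Whether its P signal lay at background, as for H19, was not examined, and no conclusion is drawn from that value. Peg13, an imprinted RNA, fell by 1.22 in P and 1.21 in S, and Mir17hg by 0.45 and 0.54. Jpx, an RNA of the X inactivation centre that was also not detected on every array, rose by 1.24 in P and 0.88 in S. Mirg rose in S, and Kcnq1ot1 and Ftx fell there. Rmrp read 0.09 in P and -0.34 in S and did not pass. Under spike-in scaling 1 of the 17 fell in each fraction and none rose, and none passed for translational efficiency. Under spike-in scaling 4 of the 17 were lower and 2 higher in scramble cells.

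The mRNAs of proteins that work with these RNAs lay on the lower side in P, in medians far smaller than the differences of the 4 RNAs detected on all arrays. Of 16 paraspeckle and speckle proteins 8 were lower and 2 higher in P of scramble cells, with a median of -0.42, Tardbp (-1.22), Srrm1 (-1.13) and Son (-1.06) being the farthest. With the eIF6 shRNA none of the 16 passed in S and 2 fell in P, where 10.7% of all genes fell. Of 9 factors of nonsense-mediated decay 6 were lower and 1 higher, with a median of -0.56, and Smg6 (-0.78), Smg5 (-0.68) and Upf3b (-0.65) were the farthest. Smg5 fell with the shRNA in P (by 0.49, adjusted p = 0.0185) and in S (by 0.49, adjusted p = 0.016). Under spike-in scaling 11 of 16 and 9 of 9 were higher in P of scramble cells, where the median of all genes was itself 1.52. Less that median, the medians of the 2 lists were -0.28 and -0.26, so their place above 0 came with the shift of all genes. With that scaling none of their genes passed for the shRNA in either fraction.

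Neighbours of the imprinted RNAs went different ways. Of 7 tested, 1 was lower and 3 higher in P of scramble cells. Dlk1, the paternally expressed gene next to Meg3, was at 1.76 in scramble and 0.49 in eIF6 shRNA cells, and it fell by 1.54 in P (adjusted p = 9.92e-07), with a change in translational efficiency of -1.28 (adjusted p = 0.00352). Mirg, a noncoding RNA downstream of Meg3 and Rian, was at -0.67 and -1.58 and rose by 1.43 in S (adjusted p = 0.000115). Mrpl23, next to H19, was at 0.68 and 0.53. In P, Dlk1, Igf2 and Begain fell with the eIF6 shRNA and Dio3 and Mrpl23 rose, and Begain fell while Mirg, Dio3 and Mrpl23 rose in S. Igf2, Begain and Dio3 were not well above background on every array. Under spike-in scaling 3 of the 7 fell in P and 1 in S, and none rose in either fraction. With that scaling 5 of the 7 were higher and none lower in P of scramble cells, where the median of all genes was itself 1.52. Less that median, the list median was -0.17.

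The genes whose 16 array values ran most like each RNA were sought among 14566 or 14567 genes detected on all arrays. Pearson's r is a description here, since the step between P and S shared by the 16 arrays sets most of it. For Gas5 they were Fes, Igflr1 and D10Bwg1070e (r of 0.9982 to 0.9975), for Snhg1 Vps9d1, Ercc8 and 1110038B12Rik (0.9971 to 0.9959), and for Malat1 Gm4532, Dancr and Rbm5 (0.9971 to 0.9968). For Neat1 they were Zfp607, Gm4285 and a transcript known by an Ensembl number (0.9965 to 0.9938), and for H19 Ercc1, Necab3 and 2410002F23Rik (0.9883 to 0.9868). Meg3 reached 0.7602 at most, with Taf15, followed by Ubr1 and Cdc5l. The profiles were alike in shape and not in size: Rbm5 differed between P and S by -1.11 where Malat1 differed by -4.72, and Zfp607 by -1.32 where Neat1 differed by -4.40.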

How the data were processed

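RNA of 16 samples was hybridized on one-colour Agilent arrays. The authors deposited scanner files of Feature Extraction (version 10.7.3.1 per the file headers, mm9 annotation) with spot intensity, and a table of their own log2 values, which correlated with the scanner values at 0.995 to 1. Processed signals, already background-subtracted by the scanner software, were taken to log2, spots flagged as outliers or control were left out, and probes of one sequence were averaged. A probe was kept if 2 or more arrays of any group read it well above background (25260 of 39429). These were quantile-normalized, and the kept probes of a gene were averaged (19365 genes). One linear model with 4 group means was fitted with limma 3.58.1 (R 4.3.3), with Benjamini-Hochberg adjustment across the 19365 genes and a threshold of 0.05. The code was tested on simulated data. Named genes were the 7 RNAs, Eif6, the cell type markers, the 3 most correlated genes per RNA, and of each list up to 3 genes detected on all arrays with the largest called P minus S difference in scramble cells, beside a few named after their values were seen (Snhg5, Tug1, Dnm3os, Peg13, Jpx, Kcnq1ot1, Ftx, Igf2, Begain, Dio3). The members and lists were chosen with earlier results of these data known. The number of arrays limits the precision. Deviations of same-numbered arrays correlated at r from -0.157 to 0.412, and above 0.1 only for replicates 1 and 4 between the P groups, so numbers were not used as pairs.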

Additional observations from a re-analysis of the deposited data

How the results depend on the processing

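For Gas5, Snhg1, Malat1 and Neat1 the calls of the P minus S difference kept their direction and passed in both kinds of cells under every alternative read for it except spike-in scaling, where Snhg1 was lost (-0.87 in scramble cells and -0.69 in eIF6 shRNA cells). Normalizing P and S apart was not read for this difference, since each fraction then has its own scale. It put the median gene at 1.38 in scramble cells and 1.41 in eIF6 shRNA cells. The number of RNAs called in P for the shRNA went from 1 to 0 under spike-in scaling, to 2 with normexp correction, with a filter on all 4 arrays of a group or with the slide as a block, and ran from 1 to 2 when one replicate number was left out. Same-numbered arrays did not deviate together in most cases, but between the P groups replicate 4 (r = 0.412) and replicate 1 (r = 0.118) matched their own number best, while replicates 2 and 3 did not. The replicate number as a block is a check. With that replicate block the number was 3, with Gas5 (adjusted p = 0.0474) and Malat1 (adjusted p = 0.0491) added, and no other call on the 6 RNAs changed. In S the number went from 3 to 0 under spike-in scaling. For translational efficiency it went from 0 to 2 with normexp correction and to 1 in the deposited log2 table, and ran from 0 to 1 when one replicate number was left out.

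Every direction that turned was that of a value that had not passed the test. Under spike-in scaling the shRNA difference in P was -0.11 for Gas5, -0.27 for Snhg1, -0.18 for Malat1 and -0.054 for Meg3, that of Gas5 in S -0.11, the translational efficiency of Neat1 -0.19 (-0.005 with 75th percentile scaling) and P minus S of Meg3 in eIF6 shRNA cells 0.39. The last was also 0.005 with normexp correction and 0.23 unfiltered. Gas5 in S was -0.023 with its brightest probe, which is the middle probe. H19 in P was 0.18 unfiltered. When one replicate number was left out, Meg3 ran from -0.98 to 0.31 for P minus S in eIF6 shRNA cells, turning without replicate 2, from -0.11 to 1.06 for the shRNA in P, turning without replicate 4, and from -0.31 to 0.004 in S, turning without replicate 3.

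Of all genes, spike-in scaling called 479 lower and 11198 higher in P of eIF6 shRNA cells, in place of 5553 and 6224. For the shRNA it called 1044 lower and 99 higher in P (2072 and 2144), 344 and 39 in S (2390 and 2294) and 26 and 2 for translational efficiency (214 and 78). The last became 390 and 177 with normexp correction, 340 and 130 when P and S were normalized apart, 427 lower with 75th percentile scaling and 142 lower unfiltered. With one replicate number left out, calls fell to as few as 1467 and 1299 in P, 1404 and 1220 in S and 54 and 20 for translational efficiency, with fewer arrays in each fit. The cause of the other shifts was not tested. For Meg3, and for H19 in P, signal near background limits every value.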
